A study of Homo sapiens with 19 samples.

Results

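Replication-dependent histone genes encode the H1, H2A, H2B, H3 and H4 proteins that package newly made DNA, and most of them lie in clusters on human chromosomes 6 and 1. Their mRNAs are made in S phase, when DNA is copied, and in place of a poly(A) tail they end just after a short RNA hairpin, the histone stem-loop. SLBP binds this hairpin, LSM10 and LSM11 are the histone-specific proteins of the U7 snRNP that directs the cut behind it, ERI1 is an exonuclease that trims and helps to degrade the finished mRNA, and NPAT is the cyclin E-CDK2 substrate that activates histone transcription. Some histone genes are also known to make longer mRNAs that run past the hairpin and carry a poly(A) tail.

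The histone rows were those whose gene symbol starts with HIST1H, HIST2H, HIST3H or HIST4H, and SLBP, ERI1, NPAT, LSM10 and LSM11 were added to them. That gave 90 histone rows and 5 processing genes, 95 of the 34825 rows of each table. Of the histone rows, 15 have symbols of pseudogenes, and RefSeq lists 71 as protein-coding under their current names.

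All libraries came from HepG2, a human liver cancer cell line, transfected with 50 nM siRNA and harvested 72 h later. In the INO80 experiment the siRNAs were a non-targeting control (NTG) and 2 siRNAs against INO80, the ATPase of the INO80 chromatin remodelling complex (siINO80#1 and siINO80#2), with 3 libraries each. In the drug experiment, cells received 1 µM EPZ-6438, which blocks EZH2, the enzyme that methylates H3K27, or the solvent DMSO, starting 3 days before transfection with NTG or with an siRNA against MCRS1 (siMCRS1), a subunit that the INO80 complex shares with the NSL complex. DMSO-treated cells gave 2 NTG and 3 siMCRS1 libraries, and cells in EPZ-6438 gave 3 NTG and 2 siMCRS1 libraries. MCRS1 was targeted by a single siRNA. The labels do not say whether replicates were separate cultures, so p-values measure the spread between these libraries, which may be technical.

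The INO80 libraries held 17093574 to 25369547 reads and the drug libraries 26038505 to 47397233, and values are normalized counts, that is, reads divided by 1 scaling factor per library. INO80 fell from 1264 ± 82.2 normalized counts in NTG (SD, n = 3) to 608 with siINO80#1 and 459.6 with siINO80#2, and MCRS1 fell from 1430 to 114 in DMSO and from 1363 to 108 in EPZ-6438. Hepatocyte markers were abundant (APOB 261092 to 596123 normalized counts over both tables). Of the markers of other cell types, the T cell marker CD3E and the fibroblast marker LUM were at 8.62 or below. The others reached higher values, with 9.70 to 35.9 for PTPRC, 0.957 to 24.001 for COL1A2 and 0 to 19.97 for VWF. The endothelial marker PECAM1 had 138 to 326. The summed normalized counts of a library, in units of 1e6, were 31.3 to 33.7 in the NTG libraries of the drug experiment and 37.3 to 40.2 with siMCRS1, so results there are also given with all libraries rescaled to equal totals. In the INO80 experiment these sums were 18.8 to 19.1 in NTG and 19.4 to 22.1 with either INO80 siRNA.

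The libraries were made with a stranded kit for mRNA, a type that captures RNA by its poly(A) tail, and histone rows took only a small part of them. They took 0.00796% to 0.0130% of the reads of an INO80 library and 0.00549% to 0.00783% of those of a drug library. Over the INO80 libraries, 66 of the 90 histone rows had a read in at least 1 library, 25 had 3 or more reads in every library, and 24 were at 0 throughout. In the drug experiment these numbers were 74, 30 and 16. A row at 0 was not detected at this depth; the limit of 3 reads that a count of 0 allows equalled 2.30 to 3.58 normalized counts in the libraries of the INO80 experiment and 2.13 to 4.30 in those of the drug experiment, for counting error only. Rows were tested where their mean normalized count reached 10, which kept 22 histone rows in the INO80 experiment and 27 in the drug experiment, with all 5 processing genes in both. The other 44 and 47 rows with reads were too low to test. Levels of tail-less histone mRNA cannot be read from such libraries. The values do not separate tail-less from tailed forms of a gene, or short from longer ones.

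A few rows held most of the histone signal. HIST1H2AC, an H2A gene, made up 29.3% of the summed mean normalized count of the histone rows in the INO80 experiment and 32.3% in the drug experiment, and the 10 most abundant rows made up 82.9% and 78.8%. By family, H2A rows made up 38.3% of the sum in the INO80 experiment, H2B rows 36.7%, H1 rows 11%, H4 rows 7.71% and H3 rows 6.30%. Per kilobase of the longest annotated transcript, the leading rows of the INO80 experiment were HIST1H2AC with 377 normalized counts per kb and HIST1H1C, which encodes the linker histone H1.2, with 305. The H2B genes HIST2H2BE (130.1 per kb) and HIST1H2BD (102 per kb) and the H2A gene HIST2H2AA4 (115 per kb) lay well below them.

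**Figure D1:**
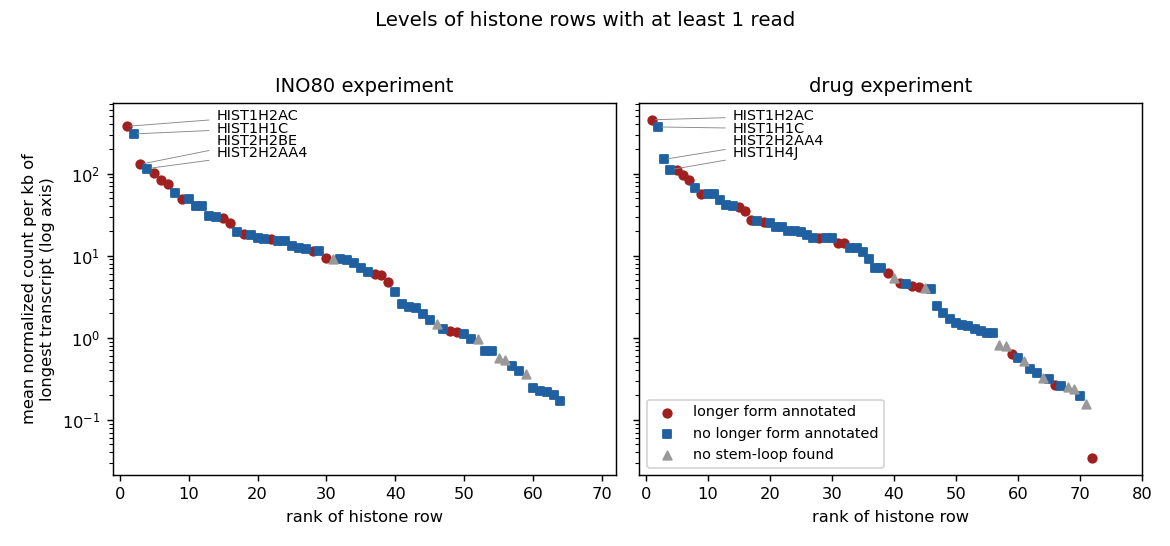
Mean normalized count per kilobase of the longest annotated transcript (log axis) for each histone row with at least 1 read and an annotated transcript, ranked within each experiment; colour and shape mark rows with an annotated transcript that runs past the stem-loop, rows without such a transcript, and rows in which no stem-loop was found. HIST1H2AC and HIST1H1C lead both panels, at 377 and 305 normalized counts per kb in the INO80 experiment, and most rows lie below 30.

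The hairpin that defines these mRNAs was looked for in annotated GENCODE transcripts as 16 bases (GG, 3 pyrimidines, TT, not G, a pyrimidine, not G, A, 3 purines, CC). Of 90 histone rows 86 had a transcript by symbol, and 70 of these held the hairpin, among them all 68 protein-coding rows with a transcript. Over all genes, 154 of 62296 (0.247%) held these letters. The most common hairpin, in 40 rows, is that of HIST1H2AC, HIST1H1C and HIST1H3H, whereas HIST1H2BC, HIST1H2BD and HIST1H2BK hold another form of it, found in 9 rows. The hairpins of rows that the results below turn on are shown with up to 5 bases on each side, written as DNA, with the hairpin in capitals:
HIST1H2AC: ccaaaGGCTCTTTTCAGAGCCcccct
HIST1H1C: caaaaGGCTCTTTTCAGAGCCacca
HIST2H2BE: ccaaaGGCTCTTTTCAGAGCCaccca
HIST1H2BC: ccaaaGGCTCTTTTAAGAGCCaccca
HIST1H3H: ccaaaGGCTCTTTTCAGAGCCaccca
HIST1H2AI: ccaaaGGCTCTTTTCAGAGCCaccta
HIST1H2AG: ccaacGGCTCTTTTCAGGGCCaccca

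RefSeq places HIST1H1C (now H1-2) at chr6:26055740-26056470 on the minus strand of GRCh38.p14, HIST1H3H (H3C10) at chr6:27810051-27810536, HIST1H2AI (H2AC13) at chr6:27808173-27808667 and HIST1H2AG (H2AC11) at chr6:27133043-27133535, all 3 on the plus strand.

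What follows the hairpin differed between the rows. HIST1H1C ends 4 bases after it and HIST1H2AI and HIST1H2AG 5 bases after it in every annotated transcript. The annotated transcript of HIST2H2BE runs on for 1729 bases, and HIST1H2AC, HIST1H2BC, HIST1H2BD and HIST1H3H have both a short and a longer form. A transcript that ended more than 50 bases past the hairpin or lacked it was called a longer form, a division chosen after the values were seen. By that definition 21 histone rows had a longer form, of which 13 passed the filter in the INO80 experiment (median of all 21: 17.8 normalized counts), and 49 had only forms that end at the hairpin, of which 8 passed (median of all 49: 1.68 normalized counts). In the drug experiment 13 and 13 of these passed, with medians of 22.6 and 3.55 normalized counts over all rows of each kind. No annotated transcript matched HIST1H2BG by symbol.

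With siINO80#1, 5 histone rows rose and 1 fell. The H2B genes HIST2H2BE, HIST1H2BC and HIST1H2BG and the H1 gene HIST1H1C were 2.00- to 2.28-fold higher than in NTG, HIST1H2AC was 1.35-fold higher, and the H3 gene HIST1H3H fell to 0.628 of its NTG level. LSM11 and ERI1 also fell. In all, 8 of the 27 tested members passed an adjusted p of 0.05 (limma on log2 of the normalized count plus 1, Benjamini-Hochberg over all 14034 genes tested), 29.6% of them, where 41.6% of all genes tested passed (20.7% higher and 20.8% lower). The median log2 fold change of the 22 histone rows was 0.35, and that of all genes 0.00. Rescaling to equal totals left 5 higher and 3 lower members, while the share of higher genes among all calls went from 49.9% to 39.8%.

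With siINO80#2, 6 histone rows rose and 2 fell. HIST2H2BE rose most, to 3.16-fold of NTG, followed by HIST1H2BG (2.94-fold), HIST1H2BC (2.36-fold), HIST1H2BD (1.93-fold), and HIST1H2AC and HIST1H4H (both 1.84-fold). HIST1H3H fell to 0.461 and the H2A gene HIST1H2AI to 0.512 of their NTG levels, and LSM11 and SLBP fell as well. These were 10 of 27 tested members, 37% of them, where 55.0% of all genes tested passed (26.6% higher and 28.4% lower). The median log2 fold change of the 22 histone rows was 0.27, that of all genes 0.00, and the share of higher genes among all calls went from 48.3% to 38.7% with libraries rescaled to equal totals. Both siRNAs were compared with the same 3 NTG libraries. Replicate C of siINO80#2 stood apart from its group (chi-square per degree of freedom of 84.3 and 121 against its replicates, and 9.45 to 18.7 for the other replicate pairs of this experiment). Without it 10 members were called for siINO80#2, 11 for siINO80#1 and 6 between the siRNAs. With siINO80#2, 4 of 8 hepatocyte markers fell, ALB (log2 fold change -0.57), APOA1 (-0.84), TF (-0.98) and TTR (-0.59), and of 3 tested markers of other cell types PECAM1 rose (0.49, from 191 to 229 normalized counts in NTG to 261 to 326). None of these 11 passed with siINO80#1. Their part in the histone results was not tested.

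HIST1H2AC had 395, 480.4 and 476 normalized counts in the NTG libraries A, B and C, 557, 694 and 572 with siINO80#1, and 842, 786 and 861 with siINO80#2. The 3 groups did not overlap. The log2 fold change against NTG was 0.43 (SE 0.11, adjusted p = 0.0088 from limma) with siINO80#1 and 0.88 (SE 0.11, adjusted p = 5.6e-05 from limma) with siINO80#2.

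HIST2H2BE had 117, 144 and 158 normalized counts in NTG, 249, 291 and 320.1 with siINO80#1, and 399, 387 and 538 with siINO80#2. Again no library of a group lay within the range of another. Its log2 fold changes were 1.04 (SE 0.16, adjusted p = 0.00050 from limma) and 1.65 (SE 0.16, adjusted p = 1.2e-05 from limma).

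HIST1H2BC had 85.9, 120.1 and 114 normalized counts in NTG, 184, 248 and 212 with siINO80#1, and 236, 225 and 296 with siINO80#2. All libraries of both INO80 siRNAs were above all NTG libraries, and the siRNAs overlapped each other. The log2 fold changes were 1.00 (SE 0.17, adjusted p = 0.00083 from limma) and 1.24 (SE 0.17, adjusted p = 0.00011 from limma).

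HIST1H2BG was much less abundant, with 13.4, 12.3 and 12.5 normalized counts in NTG, 28.6, 29.7 and 28.9 with siINO80#1, and 32.5, 39.1 and 40.6 with siINO80#2. Its libraries varied little within a group, but so few reads carry a large counting error, and this closeness does not measure precision. The log2 fold changes were 1.13 (SE 0.21, adjusted p = 0.0014 from limma) and 1.48 (SE 0.21, adjusted p = 0.00014 from limma). HIST1H2BD had 47.0 to 66.7 normalized counts in NTG, 71.7 to 81.3 with siINO80#1 and 90.4 to 120.0 with siINO80#2. Its rise passed the test with siINO80#2 (log2 fold change 0.94, adjusted p = 0.00098 from limma) and not with siINO80#1 (0.47, adjusted p = 0.051 from limma).

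HIST1H1C responded to a single siRNA. It had 188, 169 and 134 normalized counts in NTG, 314, 373 and 300.0 with siINO80#1, and 203, 187 and 137 with siINO80#2. The siINO80#1 libraries stood above all others, and the NTG and siINO80#2 libraries overlapped. The log2 fold change was 1.01 with siINO80#1 (SE 0.17, adjusted p = 0.00097 from limma) and 0.09 with siINO80#2 (95% interval -0.29 to 0.48, adjusted p = 0.68 from limma). The difference between the siRNAs was itself past the threshold, at -0.91 on the log2 scale for siINO80#2 against siINO80#1 (SE 0.17, adjusted p = 0.0046 from limma).

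HIST1H3H was the only tested H3 row. It had 151, 139.6 and 156 normalized counts in NTG, 95.4, 89.2 and 95.3 with siINO80#1, and 66.2, 66.6 and 72.7 with siINO80#2. The 3 groups were apart, with NTG highest and siINO80#2 lowest. The log2 fold changes were -0.66 (SE 0.12, adjusted p = 0.0015 from limma) and -1.11 (SE 0.12, adjusted p = 2.8e-05 from limma). HIST1H2AI had 26.8 to 37.4 normalized counts in NTG, 18.8 to 27.1 with siINO80#1 and 13.8 to 20.8 with siINO80#2, and its fall passed the test with siINO80#2 (log2 fold change -0.93, adjusted p = 0.011 from limma).

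**Figure D2:**
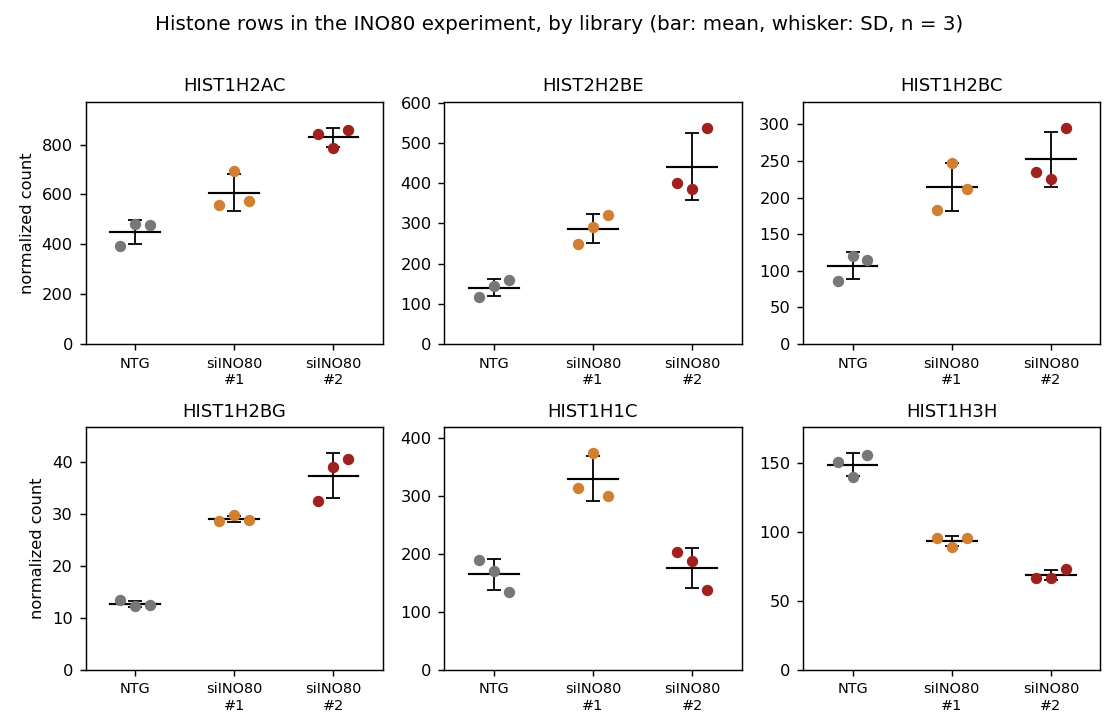
Normalized counts of 6 histone rows in each library of the INO80 experiment (points), with the mean (bar) and SD (whisker) of 3 libraries per group. HIST1H2AC, HIST2H2BE, HIST1H2BC and HIST1H2BG are higher with both INO80 siRNAs than in NTG, HIST1H1C is higher with siINO80#1 alone (300.0 to 373 normalized counts), and HIST1H3H is lower with both.

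The remaining tested histone rows gave no call, or a weak one. HIST1H4H, named here after its value was seen, had 7.68 to 10.3 normalized counts in NTG and 15.1 to 19.1 with siINO80#2 (log2 fold change 0.81, adjusted p = 0.031 from limma), and its call was lost in 9 of 20 alternatives, among them equal totals, quantile normalization, DESeq2 and leaving out NTG replicate A or C or siINO80#2 replicate A or B. HIST1H2BN, an H2B gene among the 10 most abundant rows, had 77.0 to 108 normalized counts in NTG, 109.7 to 122 with siINO80#1 and 79.6 to 111 with siINO80#2, and did not pass the test. HIST1H4J, an H4 gene, had 25.8 ± 9.13 normalized counts in NTG (SD, n = 3) and 23.2 ± 7.64 and 18.6 ± 9.07 with the siRNAs, within the spread between libraries.

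Near-identical gene copies could not be read row by row. HIST2H2AA3 was listed at 0, 0 and 104 normalized counts in the NTG libraries in which HIST2H2AA4, its near-identical copy, was listed at 69.1, 68.8 and 0. All 31-base words of the annotated HIST2H2AA4 transcript also occur in HIST2H2AA3, all of HIST2H4B's occur in HIST2H4A, and 92.5% of HIST1H4J's occur in the H4 gene H4C12. Of HIST1H2AI's words, 64.9% occur in HIST1H2AJ (now H2AC14). For HIST1H2BK and HIST1H2BL, 71.0% and 45.4% occur in transcripts of other genes. Added together after the values were seen, HIST2H2AA3 and HIST2H2AA4 had 69.1, 68.8 and 104 normalized counts in NTG, 116, 145 and 133 with siINO80#1, and 149, 118 and 81.2 with siINO80#2, so that all siINO80#1 libraries were above NTG and siINO80#2 overlapped it. With a replicate block by letter, HIST2H2AA3 on its own passed the test with either INO80 siRNA, which it did not without the block. The summed row passed the test with siINO80#1 (log2 fold change 0.72, adjusted p = 0.030 from limma) and not with siINO80#2 (0.51, adjusted p = 0.088 from limma). HIST2H4A and HIST2H4B together had 58.6 to 83.3 normalized counts over all libraries of the INO80 experiment, and the groups overlapped. With siMCRS1, HIST2H2AA3 and HIST2H2AA4 together rose in DMSO (0.70, adjusted p = 0.021 from limma) and did not pass in EPZ-6438 (0.22, adjusted p = 0.43 from limma). HIST2H4A and HIST2H4B together fell in EPZ-6438 (-0.71, adjusted p = 0.020 from limma) and did not pass in DMSO (-0.55, adjusted p = 0.062 from limma). Equal totals were not run on summed rows. By contrast, only 1.80% of the words of HIST1H2AC and 0.713% of those of HIST1H1C occur in another gene's transcripts. For HIST1H2BC the share was 28.1%, and 4 annotated gene models overlap it, 3 of them on the opposite strand. HIST1H2AC is overlapped by 1 gene model, on the same strand, and HIST1H2BD by 4, with 1 on the opposite strand. Whether the strand was used in counting is not given in the sources used here.

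HIST1H2AC and HIST1H2BC, which rose with both siRNAs, are neighbours that start from a shared promoter region. RefSeq places HIST1H2AC (now H2AC6) on the plus strand at chr6:26124172-26124690 and HIST1H2BC (now H2BC4) on the minus strand at chr6:26113170-26123926 of GRCh38.p14, with start sites 246 bases apart. Of the 13 such head-to-head pairs within 1000 bases among the histone rows, this was the pair in which both rows were among the 10 most abundant. HIST2H2BE lies at chr1:149884459-149886682 on the minus strand, 236 bases from the start of HIST2H2AC, and only the former passed the filter in the INO80 experiment (mean of 9.62 normalized counts for HIST2H2AC).

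Promoters of these genes were searched for the octamer ATTTGCAT, the element known for binding OCT1 (POU2F1) in H2B promoters, on both strands from 250 bases before to 50 bases after the start. It was found in 14 of 18 H2B promoters and 11 of 16 H2A promoters with a RefSeq sequence, in 1 of 13 H3 promoters, and in no H4 (13) or H1 (6) promoter, against 492 of 27305 promoters overall (1.80%). HIST1H2AC and HIST1H2BC share a single octamer, read from either side. The stretches with 10 bases on each side, with the octamer in capitals, are shown for the 4 H2B and H2A rows that rose with both siRNAs, all of which hold it, with the promoter's place in GRCh38.p14:
HIST2H2BE, promoter chr1:149886633-149886932, minus strand, at -46 from the start: cggagccctaATTTGCATaaggtggtta
HIST1H2BG, promoter chr6:26216639-26216938, minus strand, at -48 from the start: tgaattctttATTTGCATgaaaggccta
HIST1H2BC, promoter chr6:26123877-26124176, minus strand, at -123 from the start: ttcatacctcATTTGCATagctctgccc
HIST1H2AC, promoter chr6:26123922-26124221, plus strand, at -130 from the start, the same site: gggcagagctATGCAAATgaggtatgaa

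HIST1H2BK, which did not pass the test in the INO80 experiment, holds the octamer at -46 (tcttcaccttATTTGCATgagaggtcct), and so does HIST1H2AG at -208. HIST1H2BD, which rose with siINO80#2, has no octamer in this window. A match describes the letters only. POU2F1 itself had log2 fold changes of 0.17 and -0.15 with the INO80 siRNAs, neither of which passed the test, and of 0.56 with siMCRS1 in DMSO, a rise that did not pass with equal totals.

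Against each other, the INO80 siRNAs differed in 6 of 27 tested members, 22.2%, where 22.1% of all genes tested differed (9.48% higher and 12.6% lower). HIST2H2BE (0.61 on the log2 scale, adjusted p = 0.021 from limma) and HIST1H2AC (0.45, adjusted p = 0.014) were higher with siINO80#2 than with siINO80#1. HIST1H1C, HIST1H3H (-0.44, adjusted p = 0.027 from limma), LSM11 and SLBP were lower. Without siINO80#1 replicate A the count of members fell to 2, and without siINO80#1 replicate B to 3; LSM11 and HIST1H1C kept their calls in all 20 alternatives run.

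Of the processing genes, LSM11, the U7 snRNP protein, changed most. LSM11 (chr5:157743712-157760709, plus strand) had 462, 459.9 and 439 normalized counts in NTG, 261, 269 and 263 with siINO80#1, and 187, 206 and 149 with siINO80#2. The groups were apart and ordered, and the log2 fold changes were -0.78 (SE 0.12, adjusted p = 0.00044 from limma) and -1.33 (SE 0.12, adjusted p = 6.3e-06 from limma). Its partner LSM10 had 303 to 364 normalized counts in NTG, 268 to 299 with siINO80#1 and 236 to 316 with siINO80#2, and did not pass the test (log2 fold change -0.27 with either, adjusted p = 0.11 and 0.090 from limma).

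SLBP, the stem-loop binding protein, had 1170.0, 1237 and 1186 normalized counts in NTG, 1141, 1299 and 1091 with siINO80#1, and 912, 986 and 1005 with siINO80#2. All siINO80#2 libraries were below the rest, with a log2 fold change of -0.31 against NTG (SE 0.08, adjusted p = 0.0073 from limma). With siINO80#1 it was -0.03 (95% interval -0.21 to 0.15, adjusted p = 0.80 from limma). ERI1 showed the reverse order. It had 692 to 761 normalized counts in NTG, 477 to 564 with siINO80#1 and 580.1 to 723 with siINO80#2, and its fall passed the test with siINO80#1 (log2 fold change -0.47, adjusted p = 0.0043 from limma) and not with siINO80#2 (-0.15, adjusted p = 0.24 from limma). The difference between the siRNAs in ERI1 was 0.32 (adjusted p = 0.0501 from limma). NPAT, at 379.7 to 474 normalized counts throughout, changed by -0.04 and -0.10 on the log2 scale, and both 95% intervals included 0.

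**Figure D3:**
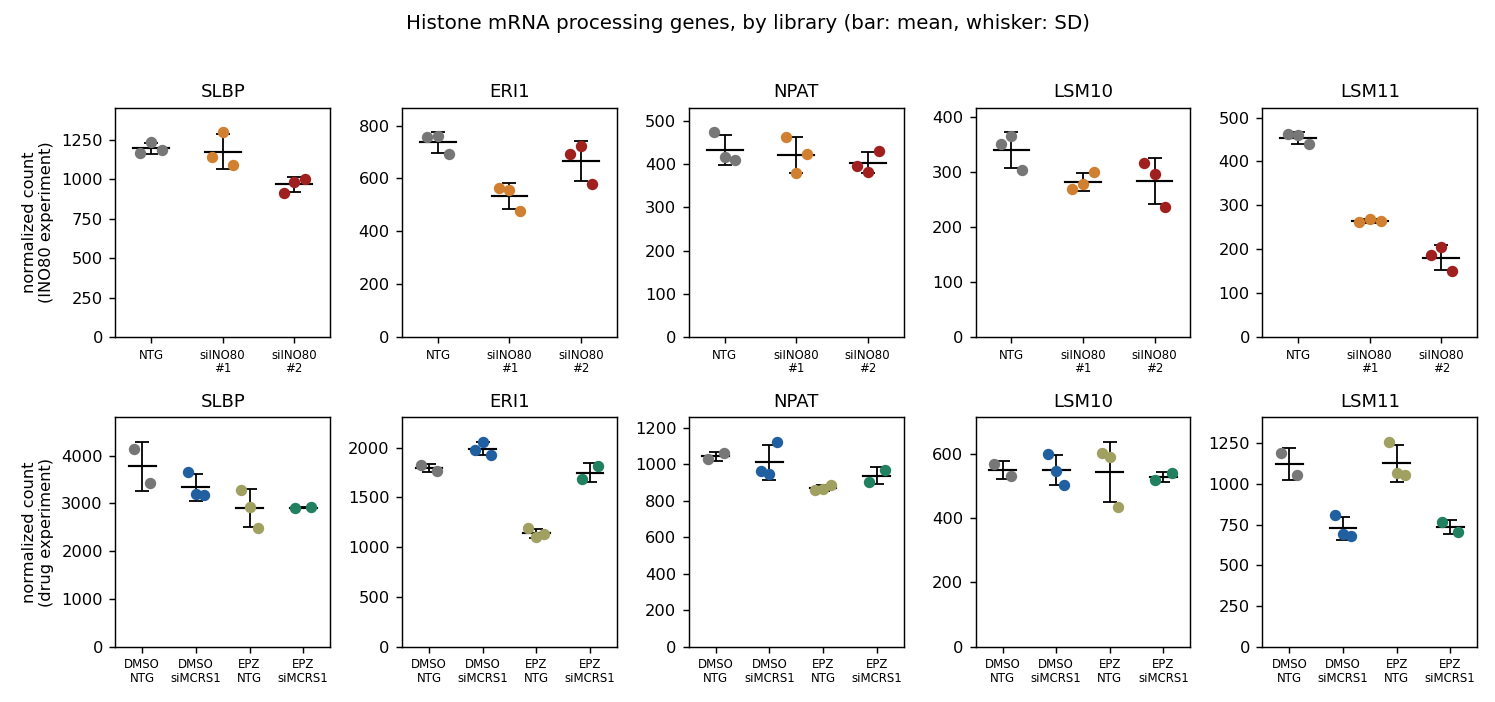
Normalized counts of SLBP, ERI1, NPAT, LSM10 and LSM11 in each library (points), with mean (bar) and SD (whisker), in the INO80 experiment (top, 3 libraries per group) and the drug experiment (bottom, 2 or 3 libraries per group). LSM11 is lower in all libraries with an INO80 or MCRS1 siRNA than in every NTG library of its experiment, and within the drug experiment ERI1 is lowest, at 1096 to 1188 normalized counts, in EPZ-6438 with NTG.

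Other genes of histone expression had the following values in these comparisons, in which 41.6% and 55.0% of all genes passed. Among 16 S phase genes such as PCNA, the MCM helicase subunits and thymidine kinase TK1, 11 fell and none rose with siINO80#1 (median log2 fold change -0.48), and all 16 fell with siINO80#2 (median -1.26). The falls with the 2 siRNAs were -0.81 and -1.77 for CDT1, which licenses replication origins, -0.79 and -2.02 for MCM5, and -0.71 and -1.65 for TK1. Their summed level was 34636 to 40770.4 normalized counts in NTG, 26675 to 31505 with siINO80#1 and 13831 to 19398 with siINO80#2. These directions held with equal totals and with quantile normalization (11 and 12 of 16 lower with siINO80#1, and 16 with siINO80#2). The part of the S phase genes in the histone results was not tested. Of 16 further factors of histone mRNA 3′ ends and decay, 4 fell and 2 rose with siINO80#1, and 7 fell and 2 rose with siINO80#2. With equal totals none rose and 5 and 7 were lower. Lower with both siRNAs were MIF4GD, the SLBP-interacting protein that promotes histone mRNA translation (log2 fold changes -0.73 and -1.03), CPSF2, a partner of the endonuclease CPSF3 (-0.47 and -0.93), CASP8AP2, also known as FLASH (-0.49 and -0.50), and CSTF2 (-0.35 and -0.55). The cap-binding protein NCBP1 (0.34 and 0.37) and CPSF3 (0.28 and 0.30) rose with both, changes that did not pass the test with equal totals. Of 8 transcription regulators of histone genes, E2F1 fell with both siRNAs (-0.88 and -1.41).

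In the drug experiment, siMCRS1 in DMSO raised 5 histone rows and lowered 1. HIST2H2BE was 1.84-fold, HIST1H2BC 1.81-fold and HIST1H2AC 1.45-fold of its level in NTG, HIST1H2BK and HIST1H2BD were also higher, and HIST1H3H was at 0.481 of it. LSM11 fell. These were 7 of 32 tested members (21.9%), where 47.7% of the 14312 genes tested passed (23.1% higher and 24.6% lower). The median log2 fold change of the 27 tested histone rows was -0.19, and that of all genes 0.00. With libraries rescaled to equal totals the median of all genes moved by -0.23, the share of higher genes among all calls went from 48.4% to 27.1%, and the members' split went from 5 higher and 2 lower to 1 higher, HIST2H2BE, and 5 lower. Without the siMCRS1 library numbered 2 or 3, 4 members were called.

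HIST2H2BE had 123 and 141 normalized counts in DMSO with NTG and 200.3, 281 and 246 with siMCRS1. The groups did not overlap, and the log2 fold change was 0.86 (SE 0.19, adjusted p = 0.0036 from limma), a call kept in all 21 alternatives run. HIST1H2AC had 583 and 702 normalized counts with NTG and 867, 937 and 987 with siMCRS1, also apart. Its log2 fold change was 0.54 (SE 0.12, adjusted p = 0.0033 from limma), and its call was lost with equal totals (0.30) and without the NTG library numbered 1.

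HIST1H2BC had 76.6 and 141 normalized counts with NTG and 145, 234 and 213 with siMCRS1, so that the upper NTG library nearly reached the lowest siMCRS1 library. Its log2 fold change of 0.89 (SE 0.29, adjusted p = 0.029 from limma) lost its call in 6 of 21 alternatives, among them equal totals (0.65) and leaving out the NTG library numbered 1 (0.45) or the siMCRS1 library numbered 2 or 3. HIST1H2BD (0.61, adjusted p = 0.0499 from limma) and HIST1H2BK (1.09, adjusted p = 0.049 from limma) lost theirs in 14 and 15. HIST1H2BG, raised by both INO80 siRNAs, had 21.1 and 26.7 normalized counts with NTG and 14.5, 19.8 and 31.5 with siMCRS1, which overlap. HIST1H1C had 238 and 278 with NTG and 249 to 286 with siMCRS1 (log2 fold change 0.05, 95% interval -0.31 to 0.41).

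HIST1H3H fell again. It had 144 and 181 normalized counts in DMSO with NTG and 71.2, 76.0 and 87.4 with siMCRS1. Every siMCRS1 library was below both NTG libraries, and the log2 fold change was -1.04 (SE 0.20, adjusted p = 0.0015 from limma), kept in all 21 alternatives. HIST1H2AI had 38.3 and 35.3 with NTG and 18.6 to 23.1 with siMCRS1, and did not pass the test (log2 fold change -0.76, adjusted p = 0.067 from limma).

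In EPZ-6438, siMCRS1 lowered 5 histone rows and raised none. HIST1H3H was at 0.373, the H2A genes HIST1H2AG and HIST1H2AI were at 0.344 and 0.314 of their level in NTG, and the H2B rows HIST2H2BD, a pseudogene, and HIST1H2BL were also lower. LSM11 fell and ERI1 rose. Again 7 of 32 tested members (21.9%) passed, where 53.7% of all genes tested did (26.8% higher and 26.9% lower). HIST1H2BL is among these 5 rows and 7 members, although it passed the filter through its high level in EPZ-6438 with NTG. The median log2 fold change of the 27 histone rows was -0.36, and that of all genes 0.01. Equal totals moved the median of all genes by -0.24, the share of higher genes among all calls from 49.9% to 30.2%, and the members from 1 higher and 6 lower to 1 higher and 8 lower.

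HIST1H3H had 200.4, 244 and 203 normalized counts in EPZ-6438 with NTG and 72.0 and 88.8 with siMCRS1 (log2 fold change -1.41, SE 0.20, adjusted p = 0.00018 from limma). HIST1H2AI had 43.1, 64.6 and 54.7 with NTG and 21.6 and 12.4 with siMCRS1 (-1.64, SE 0.32, adjusted p = 0.0013 from limma). HIST1H2AG had 54.9, 34.8 and 41.0 with NTG and 17.6 and 12.4 with siMCRS1 (-1.47, SE 0.34, adjusted p = 0.0036 from limma). In each of these rows both siMCRS1 libraries lay below all NTG libraries. Their siMCRS1 libraries overlapped those in DMSO, and their NTG libraries lay above those in DMSO, differences that did not pass the test.

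HIST2H2BD had 25.9 to 62.5 normalized counts with NTG and 12.8 and 9.76 with siMCRS1 (log2 fold change -1.66, adjusted p = 0.0087 from limma). All of its 31-base words occur in another annotated gene, and its call was lost without siMCRS1 replicate B. HIST1H2BL, which shares a promoter region with HIST1H2AI (start sites 244 bases apart), had 10.5 to 21.3 normalized counts with NTG, and only 1 and 3 reads in the siMCRS1 libraries. Pooled over libraries that is a ratio of 0.0938 (exact 95% interval 0.0247 to 0.253, counting error only). Its mean over all libraries was 10.2, just above the filter, with the highest group mean in EPZ-6438 with NTG (17.4), so it passed the filter through that group, and its call is given as a description only. The rows that rose in DMSO had no call here. HIST1H2AC had 685, 683 and 657 with NTG and 715 and 747 with siMCRS1 (log2 fold change 0.11, 95% interval -0.14 to 0.37), and HIST2H2BE had 133 to 172 with NTG and 191 to 192 with siMCRS1 (0.29, 95% interval -0.12 to 0.71).

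**Figure D4:**
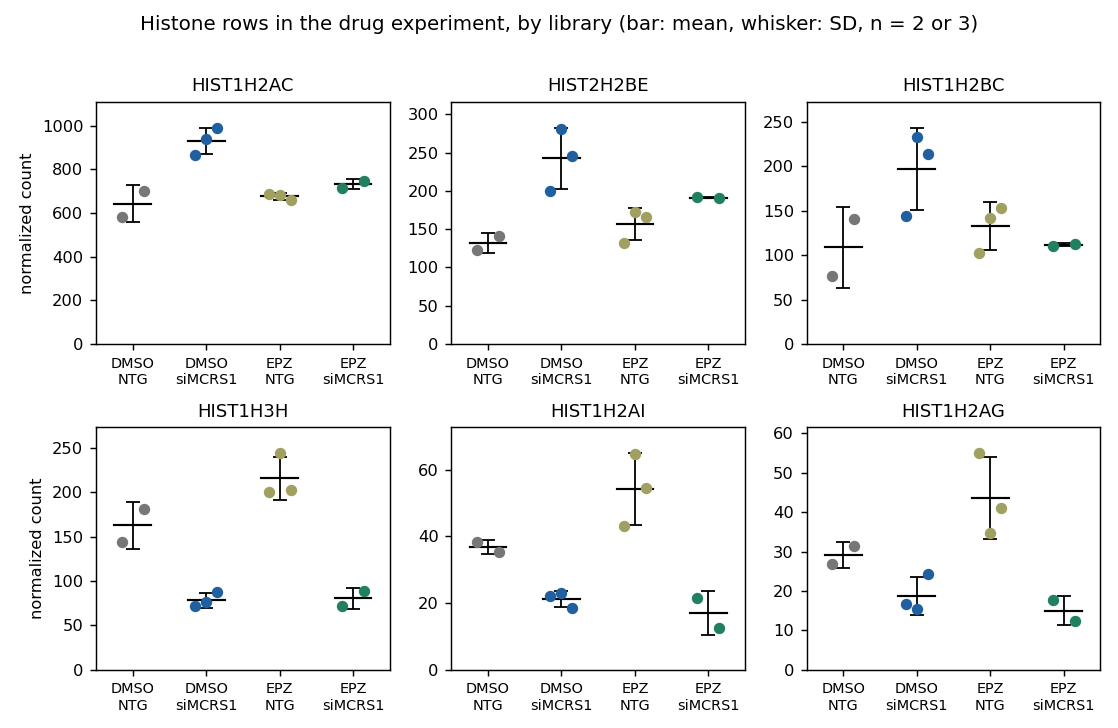
Normalized counts of 6 histone rows in each library of the drug experiment (points), with the mean (bar) and SD (whisker) of 2 or 3 libraries per group. HIST1H3H is lower with siMCRS1 in both treatments (71.2 to 88.8 normalized counts against 144 to 244 with NTG), and HIST1H2AC and HIST2H2BE are highest in DMSO with siMCRS1. HIST1H2AI and HIST1H2AG have their lowest means in EPZ-6438 with siMCRS1, where the libraries overlap those of siMCRS1 in DMSO.

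The difference of the siMCRS1 effect between the treatments was tested as an interaction. No member passed by limma, edgeR or DESeq2, and 0% of all 14312 genes passed by limma, although 5 of 32 members had an unadjusted p under 0.05, as had 336 genes in all (2.35%). For HIST1H2BC the interaction was -1.11 on the log2 scale (95% interval -2.03 to -0.19), for HIST1H2AC -0.42 (-0.79 to -0.06) and for ERI1 0.47 (0.18 to 0.76), with adjusted p = 1.00 from limma for each. The calls made in a single treatment were therefore not shown to differ between treatments.

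EPZ-6438 against DMSO changed 1 of 32 members in NTG cells (3.13%), where 0.384% of all genes tested passed, and none in siMCRS1 cells, where 0.0908% passed. That member was ERI1. It had 1823 and 1766 normalized counts in DMSO with NTG and 1188, 1096 and 1128 in EPZ-6438 with NTG, a log2 fold change of -0.66 (SE 0.09, adjusted p = 0.0298 from limma). With siMCRS1 it had 1929 to 2055 in DMSO and 1679 to 1813 in EPZ-6438 (-0.19, 95% interval -0.39 to 0.02). The NTG groups were far apart, and the call was lost in 5 of 21 alternatives, which were a fit of only the groups compared and leaving out either DMSO NTG library or the EPZ-6438 NTG library numbered 2 or 3. In siMCRS1 cells 3 of 32 members had an unadjusted p under 0.05 by limma, against 9.12% of all genes, and edgeR and DESeq2 called none. HIST1H3H changed by 0.41 on the log2 scale with EPZ-6438 in NTG cells, from 144 and 181 to 200.4, 244 and 203 normalized counts, without passing the test. A replicate block that reads column numbers as letters, given below, called SLBP as well as ERI1 in NTG cells, and many more genes in all. The labels do not state that match.

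LSM11 was lower with siMCRS1 in both treatments. It had 1191 and 1053 normalized counts in DMSO with NTG, 809, 695 and 680.4 in DMSO with siMCRS1, 1258, 1069 and 1057 in EPZ-6438 with NTG, and 769 and 707 in EPZ-6438 with siMCRS1. No siMCRS1 library reached an NTG library. The siMCRS1 effect was -0.62 on the log2 scale in DMSO (SE 0.13, adjusted p = 0.0023, limma) and -0.61 with the inhibitor (SE 0.13, adjusted p = 0.0022, limma). With equal totals it was -0.86 and -0.85. ERI1 rose with siMCRS1 in EPZ-6438 (log2 fold change 0.62, adjusted p = 0.00026 from limma) and by 0.15 in DMSO, which did not pass. SLBP (2496 to 4139 normalized counts), NPAT (857 to 1122) and LSM10 (435 to 604) gave no call for siMCRS1 in either treatment.

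**Figure D5:**
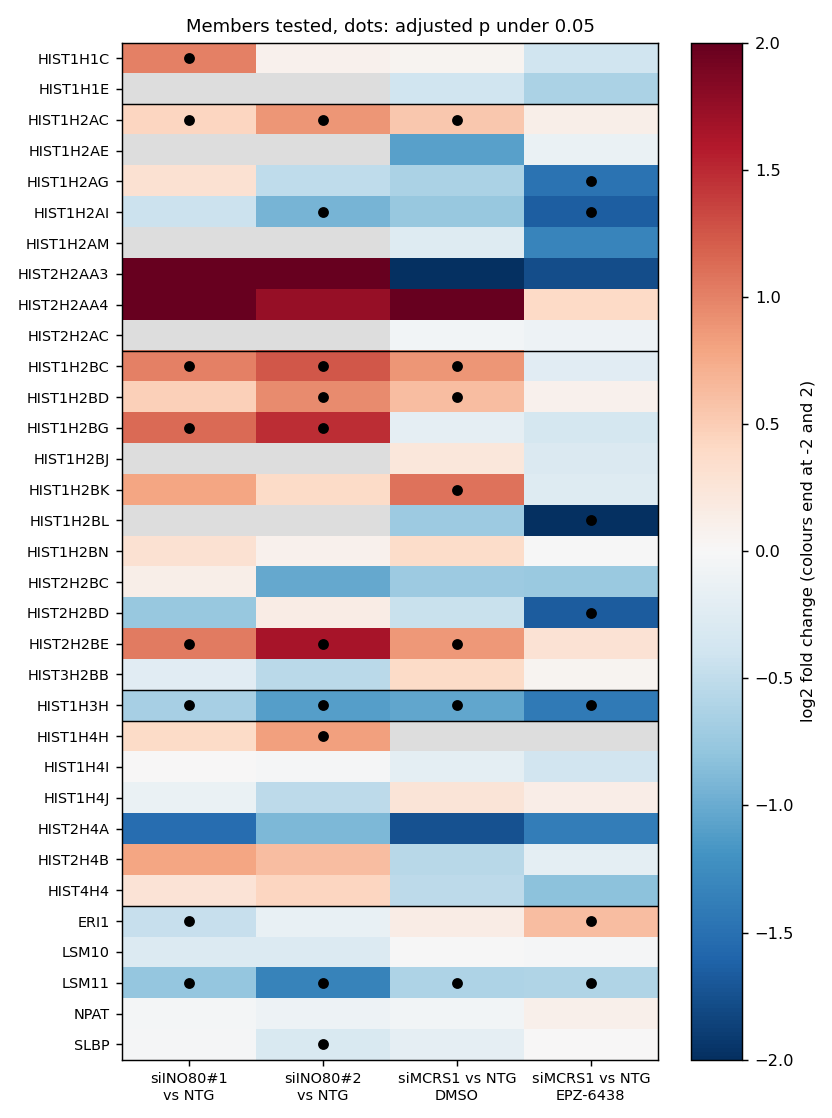
Log2 fold changes against NTG (colour, ending at -2 and 2) of all members tested in either experiment, grouped as H1, H2A, H2B, H3, H4 and processing genes; dots mark an adjusted p under 0.05 and grey marks rows below the filter. HIST1H3H and LSM11 are lower and marked in all 4 columns, the H2B rows HIST1H2BC and HIST2H2BE are higher and marked in 3, and HIST2H2AA3 and HIST2H2AA4 have deep colours without a mark. The sum of these near-identical copies, not shown, passed the test with siINO80#1 and with siMCRS1 in DMSO.

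Among the S phase genes, siMCRS1 lowered 12 of 16 and raised none in DMSO (median log2 fold change -0.51), and lowered 6 and raised 2 in EPZ-6438 (median -0.32). With equal totals 13 were lower in DMSO, and 12 were lower and 1 higher in EPZ-6438; the 2 that rose, MCM3 and RRM2, did not pass under quantile normalization. In DMSO and EPZ-6438 the falls were -1.37 and -1.38 for CDC45, a part of the replicative helicase, -1.06 and -1.20 for MCM5, and -1.03 and -1.07 for TK1. The summed S phase level was 94379 to 116185 normalized counts in DMSO with NTG and 76581 to 93419 with siMCRS1, and 76977 to 94921 and 78589 to 78981 in EPZ-6438, and its part in the histone results was not tested. Of the 16 further 3′ end and decay factors, 5 fell and 3 rose in DMSO, and 6 fell and 6 rose in EPZ-6438, where 47.7% and 53.7% of all genes passed. With equal totals 7 fell and 1 rose in DMSO, and 7 fell and 2 rose in EPZ-6438. Lower in both treatments were MIF4GD (log2 fold changes -1.78 in DMSO and -2.27 in EPZ-6438), SYMPK, the scaffold of the cleavage complex (-0.64 and -0.85), CASP8AP2 (-0.68 and -0.55) and CPSF2 (-0.48 and -0.41), whereas ZNF473, the U7 snRNP-associated zinc finger protein, was higher (0.66 and 0.71). The spliceosome protein gene SNRPB (0.44 and 0.61) and NCBP1 (0.41 and 0.70) were higher too, but SNRPB did not pass with equal totals or quantile normalization in either treatment, nor NCBP1 in DMSO. E2F1 (-1.34 and -1.41) and the OCT1 coactivator gene POU2AF1 (-1.10 and -1.08) fell in both treatments. The transcription factor gene YY1 rose (0.40 and 0.36), and neither rise passed with equal totals or quantile normalization. Of the 8 hepatocyte markers none passed in DMSO and ALB rose in EPZ-6438 (0.57), a rise that did not pass under either scaling.

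Set against the annotation, the rows called higher in the knockdown comparisons mostly had a longer form. HIST1H2BG, higher with both INO80 siRNAs, had no annotated transcript by symbol and is in neither kind. The near-identical copies HIST2H2AA3 and HIST2H2AA4 fall on opposite sides of this division. With siINO80#2, 5 of the 13 tested rows with a longer form rose and 1 fell (median log2 fold change 0.62), and none of the 8 without rose and 1 fell (median 0.04). With siINO80#1 it was 3 higher and 1 lower of 13 (median 0.38), and 1 higher of 8 (median 0.15). In DMSO, siMCRS1 raised 4 and lowered 1 of 13 with a longer form (median 0.23) and raised 1 of 13 without (median -0.26). Of these raised rows only HIST2H2BE stayed called higher with equal totals. In EPZ-6438 it lowered 1 of 13 with a longer form (median -0.23) and 4 of 13 without (median -0.40). Among these 4 are HIST1H2BL, which passed the filter through its high level in EPZ-6438 with NTG, and the pseudogene HIST2H2BD. HIST1H3H, lower in all 4 comparisons, has a longer form, and HIST1H1C and HIST1H2BK, higher in 1 each, do not. These counts have no test, the division was chosen after the values were seen, and rows of the 2 kinds differ in level. Over all genes tested, 20.7% were called higher and 20.8% lower with siINO80#1, and 26.6% and 28.4% with siINO80#2. With siMCRS1 these shares were 23.1% and 24.6% in DMSO, and 26.8% and 26.9% in EPZ-6438.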

How the data were processed

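RNA was extracted with Trizol and a Direct-zol kit. For each experiment the authors deposited a gene table whose signal is normalized counts, that is, counts divided by 1 scaling factor per library. Submitters' processing notes name kallisto, DESeq2 and GRCh38; versions and annotation are not given in the sources used here. All values (100% within 0.001 of a whole number) were whole multiples of 1 step per library, and dividing by it gave reads, which may be rounded estimates. Replicate libraries all differed beyond sampling noise (chi-square per degree of freedom 9.45 to 121). Groups came from the labels. Deviations from group means of same-letter NTG and siINO80#1 libraries correlated at 0.135 to 0.263, so these groups count as paired by letter. Same-letter libraries of the other INO80 groups correlated at -0.077 to 0.134 and were not counted as paired. The reported tests do not use the pairing, and counts with a replicate block are given below. Most drug columns carry numbers where labels carry letters.

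Genes with a mean of at least 10 were tested within each table with limma 3.58.1 (R 4.3.3; lmFit, eBayes with trend) on log2(value + 1), which understates changes of low genes, with all groups in 1 fit and Benjamini-Hochberg adjustment; scripts were tested on simulated data. The members and lists were chosen with earlier results of these data known. Named were the processing genes, the 10 most abundant histone rows and the 4 largest called changes in each direction; from each context list, at most 4 genes per direction called the same way by both INO80 siRNAs or in both siMCRS1 comparisons, of which 1 is not reported here. POU2F1 was added for its role at the octamer, and MCM3 and RRM2 after their values were seen. Hairpins came from GENCODE v44 transcripts by symbol, with the planned 17-letter pattern, which matched nothing, corrected to 16, and promoters and positions from RefSeq. Alternatives were other pseudocounts, filters, scalings, left-out libraries, edgeR 4.0.16 and DESeq2 1.42.0 on the reads, and summed copies.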

Additional observations from a re-analysis of the deposited data

How the results depend on the processing

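Counts of members called stayed within 1.5 times the reported number except as follows. With only the groups compared in the fit, siMCRS1 in DMSO called 4 members (reported 7) and EPZ-6438 in NTG cells called 0 (reported 1). Without a filter, siMCRS1 in EPZ-6438 called 11 (reported 7). Leaving out 1 library at a time gave 8 to 11 members for siINO80#1, 9 to 12 for siINO80#2, 2 to 7 between the siRNAs, 4 to 8 for siMCRS1 in DMSO (4 without siMCRS1 library 2 or 3), 6 to 8 in EPZ-6438, and 0 to 1 for EPZ-6438 in NTG cells (0 without DMSO NTG library 3 or EPZ-6438 NTG library 2 or 3; without DMSO NTG library 1 ERI1 lost its call and another member gained one). With 1 library left in a group, that library is assumed to vary like the others. All named calls of either INO80 siRNA against NTG were kept, except that of HIST1H4H, and no direction of a called value turned under any alternative run. Of the values of single genes under the alternatives, 70 lost a call, 39 gained one and 3639 did neither. A replicate block by letter gave 10, 11 and 7 members for siINO80#1, siINO80#2 and their difference (6327, 8127 and 3590 over all genes). Same-letter libraries correlated at -0.08 to 0.26 (mean 0.103, 9 pairs, 5 over 0.1) and others at a mean of -0.05 (18 pairs), and among named calls the block added HIST2H2AA3 for either siRNA against NTG and ERI1 between the siRNAs, and ended none. In the drug experiment a block that reads column numbers 1, 2 and 3 as letters A, B and C was added after seeing the data. The labels do not state this match, though the DMSO NTG samples are labelled A and C and their columns are numbered 1 and 3. It called 7 members for siMCRS1 in DMSO, 9 in EPZ-6438 (among them HIST1H1C, lower), 2 for EPZ-6438 in NTG cells (ERI1 and SLBP, reported 1; 1779 genes in all against 55), and 0 in siMCRS1 cells (100 genes against 13) and for the interaction (1 gene). So matched libraries correlated at -0.02 to 0.303 (mean 0.20, 12 pairs, 11 over 0.1) and others at a mean of -0.10 (25 pairs), which is a hint from the data and was not taken as a pairing. Deviations from group means cancel within a group, so in both experiments the mean of the other pairs largely follows from that of the matched pairs. DESeq2 called 721 genes for EPZ-6438 in NTG cells and 149 in siMCRS1 cells, where limma called 55 and 13, and called 5 for the interaction, none of them a member. The filter left 22 and 27 of the 90 histone rows to be tested in the INO80 and drug experiments.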

Other observations

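Replication-independent histone genes, whose mRNAs carry a poly(A) tail, summed to 30406 to 33277 normalized counts in NTG, 31801 to 34776 with siINO80#1 and 27914 to 32820.0 with siINO80#2, ranges that overlap. With siINO80#1, 2 of 11 tested fell and none rose, and with siINO80#2, 7 fell and 1 rose (median log2 fold change -0.46). The rise, that of H1F0 (0.23), did not pass with equal totals or quantile normalization. Over all genes 41.6% and 55.0% passed with the INO80 siRNAs, and 47.7% and 53.7% with siMCRS1 in DMSO and EPZ-6438. The macroH2A2 gene H2AFY2 (-0.64 and -1.30) and H2AFJ (-0.54 and -0.76) fell with both siRNAs. With siMCRS1, 3 of 12 fell and 2 rose in DMSO, and 4 fell and 1 rose in EPZ-6438: H1F0, the gene of the linker histone H1.0 (log2 fold changes -0.93 and -1.05), H2AFY2 (-1.03 and -1.01) and H2AFJ (-0.53 and -0.89) were lower, and the change of H2AFJ in DMSO did not pass under quantile normalization. In DMSO the rises of the H3.3 gene H3F3B (0.55) and of H3F3C (1.03) did not pass with equal totals, which left none higher and 6 lower. H3F3B rose in EPZ-6438 (0.76) also with equal totals.

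Histone chaperones, which carry histones to DNA, fell more often than they rose with siINO80#2, 7 against 1 of 12, and 4 against 3 with siINO80#1. The falls of CHAF1A and CHAF1B with siINO80#2 did not pass under quantile normalization, nor the rise of ASF1A with siINO80#1 with equal totals. ASF1B, the chaperone of dividing cells, fell with both INO80 siRNAs (log2 fold changes -0.82 and -1.90) and with siMCRS1 in DMSO and EPZ-6438 (-1.28 and -1.29). HIRA fell with both INO80 siRNAs (-0.50 and -0.76), and ASF1A (0.67 and 0.91) and UBN1 (0.53 and 0.50) rose with siMCRS1 in both treatments. CABIN1, of the HIRA complex, fell in the same comparisons (-0.34, -0.65, -0.53 and -0.62). ATRX, a partner of DAXX in H3.3 deposition, rose by 0.72, 0.90, 0.78 and 0.79, and with equal totals its rises with siMCRS1 did not pass (0.54 and 0.55). Over all genes tested, 41.6% to 55.0% passed in these 4 comparisons.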
